A study of Homo sapiens with 4 samples.

Results

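By their deposited inclusion levels, the exons described here were skipped in most transcripts of both MDA-MB-231, an established human triple-negative breast cancer line, and MDA-LM2, its highly lung-metastatic derivative. They are exons of 31 to 499 nt with at least 20 reads across the junction that leaves them out in each line. Their inclusion level, the share of transcripts that keep the exon, averaged 0.1 or less over both lines. Of 33165 skipped exons listed in both lines, 31349 were in the size range, 5084 also had the reads, and 3921 of these fell within the level limit. The other 1163 are the exons they are set against. Members and limit were thus chosen on the deposited levels, so the low level of the members is their definition and not a result. The members lay in 2478 genes, and 1 lay in no annotated gene. They are not independent of each other, since 588 (15.0%) overlapped another member. A further kind of sharing concerned 1183 members (30.2%), which used the same skipping junction, and hence the same exclusion reads, as another member.

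RNA of untreated parental MDA-MB-231 cells (2 samples) and untreated MDA-LM2 cells (2 samples) was sequenced to compare the original line with the derivative. The deposited quantities are 1 set per line with no replicate named, so all values are of pooled libraries, there is no replicate error, and no p-value is given. The 39981 events listed in LM2 held 4701744 inclusion and 955034 exclusion reads, and the 43626 events in parental cells held 5529885 and 1101330. Inclusion reads fit only the transcript with the exon, inside it or at its junctions, and exclusion reads only the transcript without it. Read shares below are given with exact Clopper-Pearson 95% intervals, which cover counting error only. Of 14 markers of mesenchymal-type breast cancer cells, 9 had a listed event with at least 100 reads, among them CD44 and AXL, while 0 of 4 endothelial markers had a listed event and none of the 5 leukocyte markers reached 100 reads.

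When the spliceosome joins the exon before and the exon after a cassette exon directly, the cassette is lost from the mRNA. An exon whose length is a multiple of the codon keeps the reading frame of what follows, and any other length shifts it. A cassette that carries an in-frame stop codon is called a poison exon: its inclusion usually sends the mRNA to nonsense-mediated decay (NMD), the pathway that degrades mRNAs whose stop lies well upstream of the last exon junction. Genes of splicing factors, SR proteins above all, are known for poison exons that are used to limit their own expression, and because the included form is degraded its share in RNA understates how often the exon is spliced in.

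The stop codons are shown for exons that represent the common case among the members, an exon that ends the reading frame when it is kept. Each line is 30 bases of the exon, 5′ to 3′ on the strand of the gene, with the first in-frame stop codon in capitals, after the exon was placed into the coding transcript that lacks it.
RPL35 262-nt exon: agcatgctcttgcTAAccagagccgaggta
SRSF3 456-nt exon: tctcaccaccctcTGAatctgcattagcca
SRSF7 449-nt exon: gagtcagtcgcctTGAttcagaatgtcacg
HNRNPH1 134-nt exon: ggaaagcgacctgTAAaacaagaaccaagt
HNRNPL 70-nt exon: tgtgctaactcactgtTGAagcgtccaatg
TPM4 93-nt exon: gggtctcactatgTGAcccaggttggtctc
CLTC 143-nt exon: aacTGAgtactttagaagacactggagcct
EPG5 126-nt exon: atttaggaaactcTAAgagttgaaacactt
TUBB6 209-nt exon: gcctcattcctgtTGAtggctgatagtatc
Counted from 1 at the 5′ end of the exon, the stop began at base 67 in RPL35, 32 in SRSF3, 26 in SRSF7, 24 in HNRNPH1, 57 in HNRNPL, 19 in TPM4, 4 in CLTC, 55 in EPG5 and 147 in TUBB6. In hg38 the printed windows are chr6:36599839-36599868 (plus strand) for SRSF3 and chr2:38749305-38749334 (minus) for SRSF7. Both lie in exons that GENCODE release 29, the annotation the sequences come from, has as coding only in NMD transcripts.

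The less common case, an exon that can be kept without ending the frame, is shown by 5 whole coding exons. The first 4 are those coding exons of at most 120 nt that differed between the lines, and the fifth is the RAC1 exon that defines the RAC1b isoform of this small GTPase.
NAV2 69-nt exon: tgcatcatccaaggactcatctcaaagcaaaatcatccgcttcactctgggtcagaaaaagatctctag
MMS19 117-nt exon: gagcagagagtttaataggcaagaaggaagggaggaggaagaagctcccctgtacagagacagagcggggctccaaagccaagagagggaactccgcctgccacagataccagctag
FEZ2 81-nt exon: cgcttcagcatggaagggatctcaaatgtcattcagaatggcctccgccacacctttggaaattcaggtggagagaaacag
CD46 45-nt exon: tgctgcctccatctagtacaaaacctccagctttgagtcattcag
RAC1 57-nt exon: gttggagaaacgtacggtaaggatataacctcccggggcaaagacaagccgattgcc
They lie at chr11:19884294-19884362 (plus strand), chr10:97480241-97480357 (minus), chr2:36560785-36560865 (minus), chr1:207767607-207767651 (plus) and chr7:6398662-6398718 (plus). Letters that spell a stop in these exons are in another frame than the one the transcript reads.

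Inclusion reads were few but usually present. Of the 3921 members, 2742 (69.9%) had at least 1 inclusion read in each line, 252 had them in LM2 only, 353 in parental cells only, and 574 (14.6%) in neither. The 574 were short, with a median of 68 nt. The counts do not separate reads across the junctions of an exon from reads wholly inside it. A read inside the exon does not by itself show that the exon was spliced in. The median member had 3 inclusion reads in each line against 70 (LM2) and 87 (parental) exclusion reads. The median share of inclusion reads was 3.57% in LM2 and 3.51% in parental cells, with quartiles of 0.273% and 10.4% in the former and 0.535% and 10.3% in the latter. The deposited level was 0.00 in both lines for 325 members and had a median of 0.02 in each. Exons high in 1 line tended to be high in the other: across the 3921 members, which come from the same 2 libraries and in part share exclusion reads, Spearman's rho of the shares was 0.80, given as a description.

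**Figure D1:**
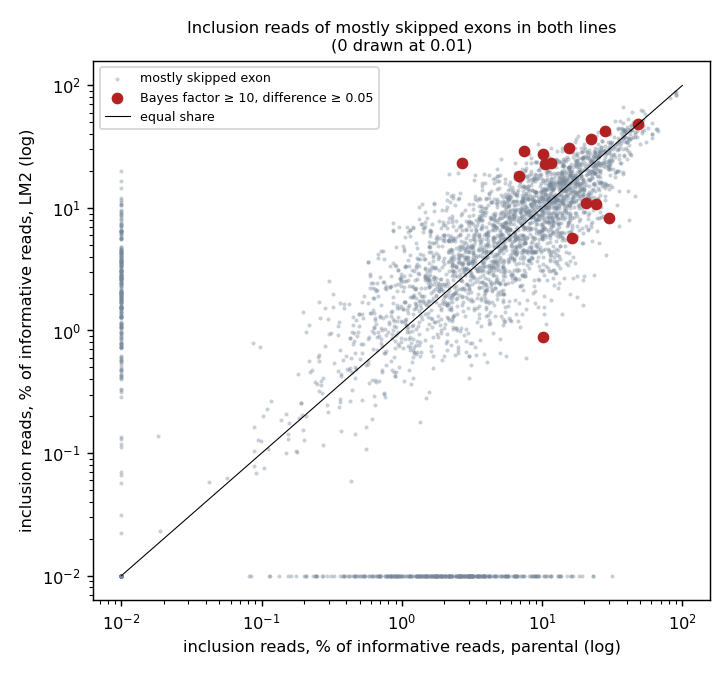
Each point is 1 of the 3921 mostly skipped exons, placed by its inclusion reads as a percentage of inclusion plus exclusion reads in parental cells (horizontal, log axis) and LM2 (vertical, log axis), with 0 drawn at 0.01. Most points lie along the line of equal shares at 1 to 20%, those at the edges have reads in 1 line or neither, and the 15 red points are exons called different from the deposited Bayes factor and level.

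The most deeply covered skips were in genes of the translation machinery. RACK1, a protein of the small ribosomal subunit, had a 95-nt exon with 51 inclusion against 13415 exclusion reads in LM2 and 81 against 12258 in parental cells. Its inclusion share was 0.379% (0.282 to 0.498%) in LM2 and, in the parental line, 0.657% (0.522 to 0.815%), so the intervals did not overlap although both deposited levels were 0.00. RPS18, another small-subunit protein, had 125 against 9559 reads in LM2 and 122 against 12860 in parental cells for a 158-nt exon, or 1.29% (1.08 to 1.54%) and 0.940% (0.781 to 1.12%). RPS27, RPS15A and RPL35 were at 0.326%, 0.855% and 0.797% in LM2 and 0.439%, 1.05% and 0.704% in parental cells. These 5 exons all had a deposited level of 0.00 in both lines, so the reads separate shares that the rounded level does not.

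Outside the ribosome, ENO1, a glycolytic enzyme, had a 201-nt exon of the 5′ untranslated region included in 0.231% (0.132 to 0.374%) of informative reads in LM2 and 0.108% (0.0542 to 0.194%) in parental cells. PPIA, the cyclophilin A gene, had a 120-nt exon at 0.563% (0.420 to 0.740%) in LM2 and, in the parental line, 0.219% (0.125 to 0.355%), from 51 against 9001 and 16 against 7292 reads. The PPIA intervals were apart, and the ENO1 intervals overlapped.

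For 6 well-covered exons no inclusion read was seen in either line. The 81-nt exon of ITGB1, the integrin beta-1 chain, was skipped in 2094 reads of LM2 and 3999 of the parental line, which allow shares of up to 0.143% and 0.0750% (3 reads of the total). A 74-nt RPS15A exon had 3523 and 3309 exclusion reads, with limits of 0.0852% and 0.0907%. The exons of APLP2 (75 nt), RPL37A (35 nt), AKAP2 (39 nt) and RAN (51 nt), the last a GTPase of nuclear transport, had limits of 0.150 to 0.229% in the derivative and 0.177 to 0.329% in the parental line. Lower inclusion than these limits could not be detected at this depth. Of these 6 exons, 3 would keep the frame without a stop (APLP2, AKAP2 and RAN), the ITGB1 exon holds an in-frame stop 6 nt before the last junction, and the RPS15A and RPL37A exons shift the frame. Over all 574 members with no inclusion read, the median limit over the reads of both lines together was 2.59%, so for most of them the absence of reads says little.

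Placed into the reading frame, most members ended it. For 3048 members and 780 of the other 1163 exons the exon sequence was known and a complete protein-coding transcript spliced from the exon before to the exon after inside its coding part. Of the 3048 members, 588 (19.3%) kept the frame without a stop, 640 (21.0%) had a length divisible by 3 but brought an in-frame stop, 451 (14.8%) shifted the frame with the first stop further down, and 1369 (44.9%) shifted it and held a stop. Together 2460 (80.7%) broke the frame or brought a stop. Of the 780 more included exons, 446 (57.2%) did so, and 334 (42.8%) kept the frame without a stop.

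The gap was not only one of length divisible by 3. Of all members 38.9% had such a length, against 50.6% of the other exons. Among exons of such length that could be placed, 640 of 1228 members (52.1%) still brought a stop, against 123 of 457 (26.9%) of the other exons. Among exons of other lengths the shares with a stop inside were 75.2% and 74.3%. Stops are likelier in longer exons, and members were slightly shorter, with a median of 105 nt against 115 nt. Within each band of length fewer members kept the frame without a stop: 32.8% against 61.5% at 31 to 75 nt, 18.4% against 46.2% at 76 to 120 nt, 10.8% against 34.3% at 121 to 200 nt and 7.17% against 19.4% at 201 to 499 nt. These are counts of exons with no test of the difference.

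In 2249 of the 2460 frame-breaking members (91.4%) the first stop lay at least 50 nt before the last exon junction, the distance usually taken to expose an mRNA to NMD. In 209 it lay later, and in 2 no stop was met. Among the other exons the figure was 369 of 446 (82.7%).

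Across the range of levels the composition was flat inside the limit and changed above it. The share of placed exons that kept the frame without a stop was 20.1% at a mean level of 0, 19.3% at 0.005 to 0.02, 17.1% at 0.025 to 0.05 and 22.4% at 0.055 to 0.1. Above the limit it was 27.7% at 0.105 to 0.2, 47.4% at 0.205 to 0.5 and 67.3% over 0.5.

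**Figure D2:**
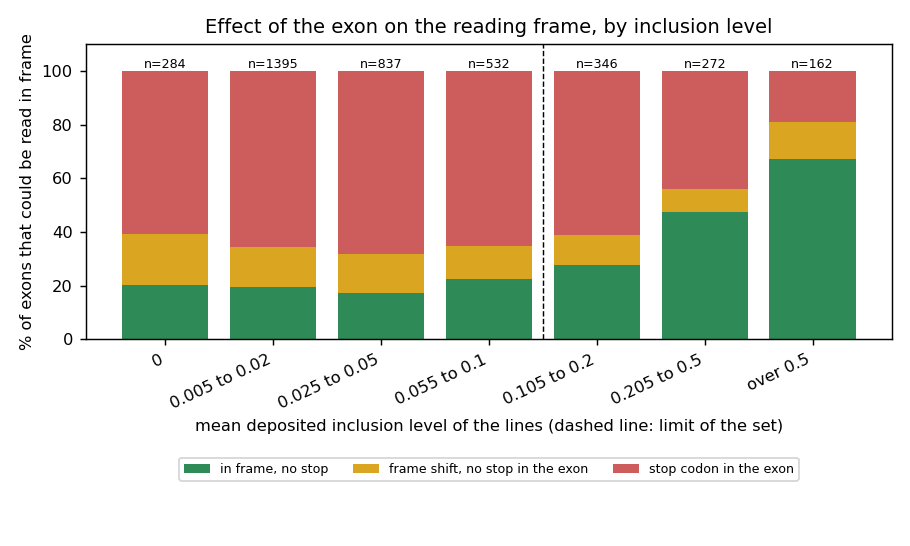
Bars show the percentage of placed exons (n above each bar) that kept the reading frame without a stop, shifted it with no stop in the exon, or held an in-frame stop, by the mean deposited level of both lines. The green part is 17.1 to 22.4% in the 4 bars left of the limit of 0.1 and reaches 67.3% in the rightmost bar.

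The annotation of the exons followed the same division, in part by construction, since annotators assign NMD transcripts by reading the same stops. Of the members, 1221 (31.1%) were coding only in transcripts annotated as NMD targets, 968 (24.7%) were coding in a protein-coding transcript, 726 (18.5%) occurred in non-coding transcripts only and 618 (15.8%) in the 5′ untranslated region. A further 153 were in the untranslated part of NMD transcripts, 2 in the 3′ untranslated region, and 233 (5.94%) matched no annotated exon. Among the other exons 48.1% were coding and 16.7% coding only in NMD transcripts. Even of the 908 coding members that could be placed, 541 (59.6%) kept the frame without a stop, against 70.6% of 463 coding exons above the limit. Among placed exons of a length divisible by 3, the shares with a stop differed less within classes than over all classes (52.1% and 26.9%). Among coding exons, 65 of 606 members (10.7%) and 31 of 358 others (8.66%) brought a stop. Among exons coding only in NMD transcripts 319 of 326 and 50 of 50 did, and in non-coding transcripts only 153 of 187 and 22 of 29. The skipping junction itself was spliced in an annotated protein-coding transcript for 98.2% of members.

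Median introns were slightly shorter around the members, though not in every annotation class. The median intron was 1846 nt upstream and 1968 nt downstream of a member, against 2310 and 2414 nt around the other exons. Among coding exons the medians were 1697 and 1874 nt against 2508 and 2557 nt. Exons coding only in NMD transcripts had 1639 and 1757 nt against 1597 and 1849 nt. In the 5′ untranslated region the upstream median was longer in members, at 2727 and 3398 nt against 2431 and 4323 nt. Median GC content was 49.1% in members and 47.3% in the others. The last exon base, part of the donor splice site, was G in 75.7% of members and 78.1% of the others, and the last 2 bases were AG in 55.3% and 57.2%. The quartiles of intron length overlapped widely, at 669 to 5635 nt upstream of members and 734 to 5881 nt upstream of the other exons.

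The label of mostly skipped rests on the deposited level, and the reads of some members went against it. A level was also computed from reads alone, with inclusion reads counted at a weight of 1/2 because an included exon has 2 junctions. It takes no account of exon length, and a long exon can collect more inclusion reads. It counts only the skipping junction of the event kept, and reads of other junctions that skip the same exon are left out. This level had a median of 0.0191 in members and 0.327 in the other exons. It exceeded 0.1 in 412 members (10.5%), 0.2 in 101 (2.58%) and 0.5 in 5. The 101 members above 0.2 were longer, with a median of 195 nt against 103 nt in the remainder, and had a median of 1054 reads over both lines that fit both isoforms, against 379; the part of these reads in the gap was not tested. Spearman's rho between deposited and read-based level was 0.82 across the members, as a description.

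Several exons with the most inclusion reads were of this kind, 3 of them in genes of splicing factors. SRSF3, an SR protein, had 801 inclusion against 106 exclusion reads in LM2 and 1132 against 127 in parental cells for its 456-nt exon, a known poison exon. Inclusion reads were 88.3% (86.0 to 90.3%) and 89.9% (88.1 to 91.5%) of the total, and the read-based levels 0.79 and 0.82, while the deposited levels were 0.09 and 0.11. By reads this exon was thus well above the limit in both lines, at a length near the upper end of the size range. SRSF7, a related SR protein, had 352 against 459 reads in LM2 and 384 against 531 in parental cells for its 449-nt exon, with read-based levels of 0.28 and 0.27 and deposited levels of 0.10 in both. HNRNPH1, an hnRNP, had 360 against 881 and 372 against 1087 reads, or read-based levels of 0.17 and 0.15 beside deposited levels of 0.08 and 0.06. HNRNPA1, whose 156-nt exon makes the longer A1-B form, stayed low by both measures: 306 against 2168 and 343 against 2491 reads, read-based levels of 0.066 and 0.064, and a deposited level of 0.04 in each line.

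Outside the splicing factors, ANXA2, a membrane-binding annexin, had a 403-nt exon with 802 against 1320 reads in LM2 and 711 against 1136 in parental cells, and ATP5MD, a small ATP synthase subunit, a 287-nt exon with 357 against 486 and 280 against 445 reads. Their read-based levels were 0.23 and 0.24 for ANXA2 and 0.27 and 0.24 for ATP5MD, with deposited levels of 0.04 to 0.05. No read of the ANXA2 event fit both isoforms.

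**Figure D3:**
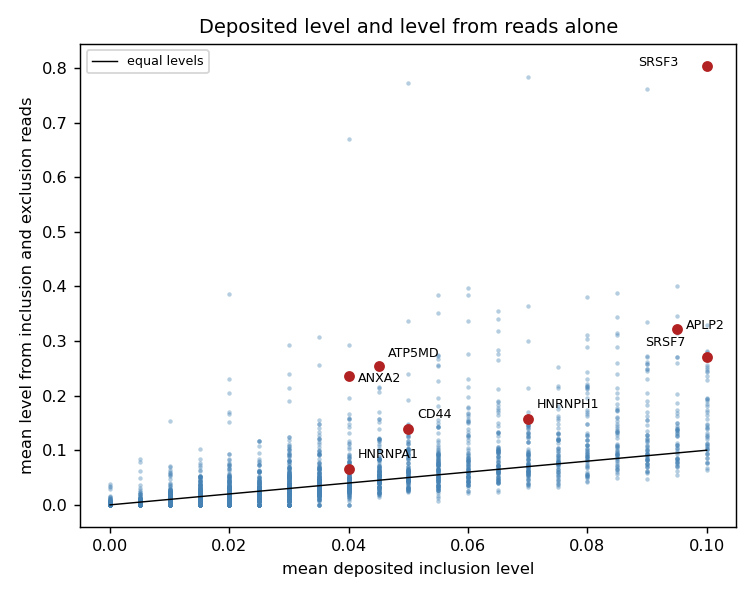
Each point is 1 member, with the mean deposited level of both lines on the horizontal axis and the mean level from inclusion and exclusion reads alone on the vertical axis; the 8 exons with most inclusion reads are in red. Most points lie near the line of equal levels. By reads 101 members are above 0.2 and 5 above 0.5, among them SRSF3 at 0.80.

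CD44, the hyaluronan receptor whose variable exons are spliced in or out of the stalk of the protein, contributed 7 members of 90 to 132 nt, and the 6 that could be placed all kept the frame without a stop. They used 4 skipping junctions, so their reads are partly shared. The 126-nt exon had 347 against 1192 reads in LM2 and 294 against 836 in parental cells, or 22.6% (20.5 to 24.7%) and 26.0% (23.5 to 28.7%). Its 99-nt version, with a splice site further in, had 22 and 27 inclusion reads against the same exclusion reads, and a 90-nt exon further down had 19 in each line. The 129-nt exon at chr11:35204512-35204640 had more inclusion than exclusion reads, 365 against 52 in LM2 and 263 against 35 in parental cells. That is 87.5% (84.0 to 90.5%) and 88.3% (84.1 to 91.7%), beside deposited levels of 0.09 and 0.05. The 1192 and 836 exclusion reads of the 126-nt exon come from a junction that also skips this one. They are not in its shares, which therefore do not give how often CD44 transcripts kept it. The 114-nt exon gave 63 against 85 reads in LM2 and 76 against 38 in parental cells. Its shares of 42.6% (34.5 to 50.9%) and 66.7% (57.2 to 75.2%) did not overlap while both deposited levels were 0.02. Its skipping junction ends at the 129-nt exon just named, so these shares leave out the 1192 and 836 reads that skip both exons. Reads that fit both isoforms numbered 7497 to 7771 per CD44 event in LM2 and 10025 to 10249 in the parental line.

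The values on both sides of the limit were close, as the rule makes them. Just inside were ATP5MG (0.15 in LM2, 0.05 in parental cells), SLC29A1 (0.07 and 0.13) and SRSF7 (0.10 and 0.10). Just outside were G3BP2, CCT3 and TXNL4A, each at 0.10 and 0.11. By reads the exons outside ranged from 0.066 to 0.16.

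Host genes were described by 12 lists. In the genes of the core spliceosome 48 of 53 exons with enough exclusion reads (90.6%) were members, and 36 of the 37 placed broke the frame or brought a stop, 35 of them with the stop at least 50 nt before the last junction. Among SR proteins and their kinases 31 of 48 exons (64.6%) were members and 25 of 28 placed broke the frame, and among hnRNPs and other splicing regulators 48 of 95 (50.5%) and 25 of 27. Over all 5084 exons 3921 were members, and 2460 of 3048 placed members broke the frame. SRPK1, a kinase of SR proteins, had a 96-nt exon at 11.5% (8.85 to 14.5%) of informative reads in LM2 and 10.8% (8.81 to 13.1%) in parental cells. The short SRSF3 exon had 4 against 490 and 8 against 590 reads, or 0.810% and 1.34%, far below the long exon of the same gene. HNRNPL, known for a poison exon of its own, had 11 against 2377 and 20 against 2760 reads, or 0.461% (0.230 to 0.823%) and 0.719% (0.440 to 1.11%). HNRNPD had 2 against 1104 reads in LM2 and 22 against 1601 in parental cells, or 0.181% (0.0219 to 0.652%) and 1.36% (0.851 to 2.04%), which do not overlap. In the core spliceosome SNRPD2, an Sm protein, was at 2.04% and 2.13%, DHX15, a helicase, at 3.68% and 3.07%, and EFTUD2, a GTPase, had 0 and 1 inclusion reads against 720 and 874.

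In the list of translation and the ribosome 64 of 82 exons (78.0%) were members and 39 of 51 placed broke the frame. Genes of mitochondrial respiration gave 45 of 53 (84.9%) and 36 of 41. In this list COX4I1, a subunit of cytochrome oxidase, had 6 and 5 inclusion reads against 1215 and 1165, and NDUFS4, a subunit of complex I, 1 and 0 against 760 and 850. DNA repair genes gave 49 of 66 members and 36 of 40 frame-breaking exons. In them PARP1, the poly(ADP-ribose) polymerase, had no inclusion read against 232 and 237 exclusion reads, and XRCC5, the Ku80 subunit, had 6 against 258 and 2 against 240. Genes of mitosis gave 65 of 97 and 48 of 56. CENPU, a kinetochore protein, had 0 inclusion reads against 568 and 1372, and BUB1, a checkpoint kinase, 1 and 5 against 934 and 901.

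Of the 12 lists, cytoskeleton and adhesion had the largest share of members that could be kept in frame: 44 of 104 placed (42.3%), with 126 of 159 exons members. Coding exons made up 62 of the 126. Even so TPM4, a tropomyosin, had a 93-nt exon with an in-frame stop at 6 against 4376 reads in LM2 and 1 against 5515 in parental cells. TPM3, another tropomyosin, had 21 against 1764 and 5 against 1405 reads for a 79-nt coding exon, or 1.18% (0.730 to 1.79%) and 0.355% (0.115 to 0.826%), with overlapping intervals. Membrane traffic genes gave 118 of 144 members with 76 of 100 frame-breaking, among them CLTC, the clathrin heavy chain, with 7 inclusion reads in each line against 575 and 794. Chromatin and transcription gave 89 of 143 and 58 of 75, ubiquitin and the proteasome 91 of 116 and 60 of 75, and apoptosis and cancer-linked isoforms 58 of 76 and 33 of 43. In the last list RAC1 had 1 inclusion read in each line against 536 and 728 for the exon of RAC1b, or 0.186% (0.00472 to 1.03%) and 0.137% (0.00347 to 0.762%). PKM, pyruvate kinase, had a 117-nt exon at 1.25% (0.924 to 1.64%) and 2.29% (1.73 to 2.98%), whose intervals were apart. In the chromatin list NSD2, a histone methyltransferase, was at 11.7% and 13.0%, and HMGN1, a nucleosome-binding protein, at 11.2% (8.74 to 14.0%) in LM2 and, in the parental line, 19.6% (16.7 to 22.7%).

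**Figure D4:**
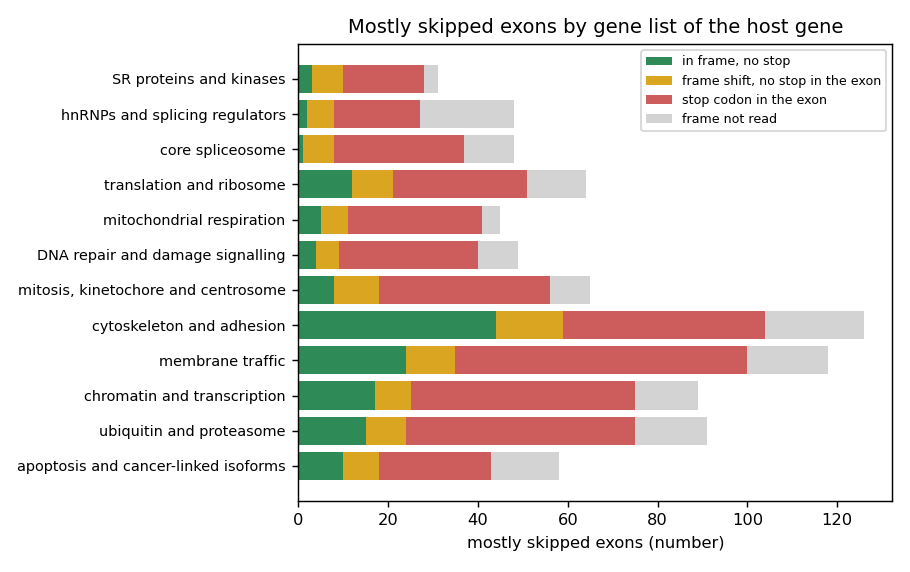
Bars count the mostly skipped exons in the genes of each list, split by what the exon does to the reading frame; grey exons could not be placed in a frame. The core spliceosome bar has 1 exon of 37 placed in green, and the cytoskeleton and adhesion bar 44 of 104.

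Differences between the lines were small in most members, which the limit on the mean level largely fixes. The difference in the authors' deposited table, LM2 minus parental, was exactly 0 in 1452 members (37.0%), within 0.02 in 3302 (84.2%) and between -0.12 and 0.12 in all 3921. Over all 5084 exons 30.1% were at 0 and 72.4% within 0.02, and nothing is read from the gap. The difference was above 0 in 1486 members and below 0 in 983, against 576 and 509 of the 1163 other exons. Read intervals leaned the other way in members, with LM2 higher in 28 and lower in 48, so no direction is read from these counts. A call required, in the authors' deposited table, a Bayes factor (the odds of a difference over none) no smaller than 10 and levels at least 0.05 apart. It was met by 15 members, where 2.20% of all 5084 exons met it. Of these, 10 were higher in LM2, against 1.34% of all exons, and 5 were lower, against 0.865%. The Bayes factor alone was met by 29 members and 2.52% of all exons. The limit on the mean level caps the difference a member can have at 0.2, so the smaller share of members is in part set by the rule and nothing is read from it. The 15 exons lay in 14 genes, and 12 of them could be placed: 6 kept the frame without a stop and 6 did not.

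Among the coding exons higher in LM2, NAV2, a neuron navigator protein, had 25 against 61 reads in LM2 and 10 against 124 in parental cells for the 69-nt exon printed above. The shares were 29.1% (19.8 to 39.9%) and 7.46% (3.64 to 13.3%), and the levels 0.16 and 0.04. MMS19, which helps deliver iron-sulphur clusters to DNA repair enzymes, had 32 against 85 and 15 against 133 reads, or 27.4% (19.5 to 36.4%) and 10.1% (5.78 to 16.2%). KIFC1, a minus-end kinesin of the spindle, had 72 against 240 and 48 against 367, or 23.1% (18.5 to 28.2%) and 11.6% (8.65 to 15.0%). In these 3 exons the LM2 share was above the parental share with intervals apart, and inclusion kept the frame.

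APLP2, a relative of the amyloid precursor protein, had a 168-nt exon that was higher in LM2 in deposited level but hardly differed in reads. Its deposited levels were 0.12 in LM2 and 0.07 in parental cells, with the largest Bayes factor in the authors' deposited table, 1e+12. Its reads were 529 against 555 in LM2 and 397 against 422 in parental cells, or 48.8% (45.8 to 51.8%) and 48.5% (45.0 to 52.0%), which overlap almost wholly. The event had 5509 reads that fit both isoforms in LM2 and 8407 in parental cells.

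Among the higher exons that end the frame, EPG5, a tethering factor of autophagy, had 9 against 30 reads in LM2 and 1 against 36 in parental cells, with wide intervals of 11.1 to 39.3% and 0.0684 to 14.2% that overlap. ATP5MG, an ATP synthase subunit, had 118 against 528 and 64 against 880 reads for a 53-nt exon that shifts the frame, or 18.3% (15.4 to 21.5%) and 6.78% (5.26 to 8.58%). COPB2, a coatomer subunit of Golgi vesicles, had 109 against 365 and 69 against 587, or 23.0% (19.3 to 27.1%) and 10.5% (8.28 to 13.1%). TKT, transketolase, had 69 against 93 and 24 against 61, and DIABLO, a mitochondrial protein that promotes apoptosis, had 45 against 100 and 21 against 114. The ELK3 exon, in the 5′ untranslated region of this ETS factor and not placed in a frame, had 44 against 77 and 26 against 90. The intervals were apart for ATP5MG, COPB2 and DIABLO, and overlapped for TKT and ELK3.

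Lower in LM2 were exons of FEZ2, CD46, TUBB6 and SLC29A1. FEZ2 had 8 against 88 reads in LM2 and 38 against 88 in parental cells, or 8.33% (3.67 to 15.8%) and 30.2% (22.3 to 39.0%), with levels of 0.04 and 0.13. CD46, a regulator of complement, had 1 against 111 and 16 against 142 reads for its 45-nt exon, or 0.893% (0.0226 to 4.87%) and 10.1% (5.90 to 15.9%). Both exons keep the frame. TUBB6, a beta-tubulin, had 38 against 317 and 195 against 606 reads for an exon that shifts the frame and holds a stop, or 10.7% (7.69 to 14.4%) and 24.3% (21.4 to 27.5%). SLC29A1, the nucleoside transporter ENT1, had 2 overlapping exons of its 5′ untranslated region that share their exclusion reads (868 in LM2, 257 in parental cells). The 107-nt version had 107 and 66 inclusion reads, or 11.0% (9.08 to 13.1%) and 20.4% (16.2 to 25.3%), and the 243-nt version 52 and 50. In each of these 5 exons the read intervals were apart.

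**Figure D5:**
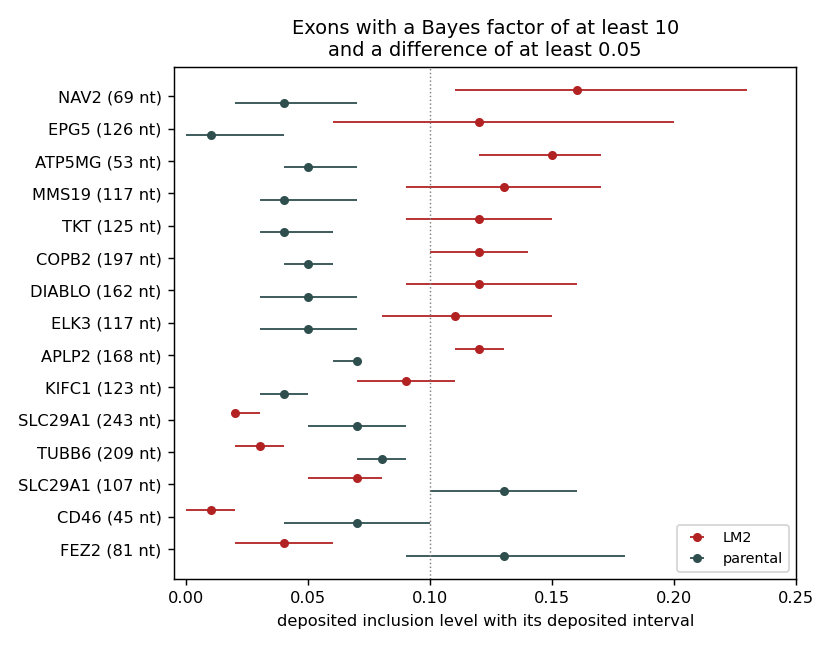
Points are the deposited inclusion levels of the 15 exons in LM2 (red) and parental cells (dark), bars their deposited intervals, and the dotted line the limit of 0.1 on the mean of both. The upper 10 exons are higher in LM2, up to 0.16 for NAV2, and the lower 5 are higher in parental cells, up to 0.13 for FEZ2 and the 107-nt SLC29A1 exon.

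Reads alone gave a different and larger set. The intervals of the inclusion shares were apart with LM2 higher in 28 members, against 1.61% of all 5084 exons, and with LM2 lower in 48, against 2.05% of all exons. Of the 15 exons above, 11 had intervals apart, in the direction of the deposited difference. The intervals of the other 4 (EPG5, TKT, ELK3 and APLP2) overlapped. Of the 76 exons with intervals apart, 11 were among the 15, 22 reached 10 in the Bayes factor of the authors' deposited table, and 68 differed in the same direction in the deposited level, while 6 had a deposited difference of 0 and 2 the opposite sign. RACK1, PPIA, HNRNPD, PKM and HMGN1 are among these 76. Each compares 2 pooled libraries and not replicated lines.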

How the data were processed

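Total RNA was sequenced after ScriptSeq v2 library preparation and aligned with STAR 2.7 to hg38, per the labels' protocols and the submitters' processing notes. Per the file headers, MISO estimated the inclusion of each skipped exon. Its version, settings and event annotation, and how the 2 samples of a line entered its tables, are not given in the sources. The deposited inclusion level is a fraction from 0 to 1 (posterior mean, 2 decimals) with interval bounds whose coverage is not given. Reads per event are deposited as raw counts in classes that fit inclusion, exclusion, both or neither, and the last class holds 74.7% (LM2) and 75.7% (parental) of all reads. The authors' deposited table of both lines adds a score, the LM2 minus the parental level, and a ratio, the Bayes factor, capped at 1e+12.

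The members, gene lists and limits were chosen with earlier results of these data known, and nothing here supports them independently. For each exon the event with most inclusion plus exclusion reads was kept, after the limits were applied. Exons were matched by exact coordinates to GENCODE release 29, and placed in the best-ranked complete protein-coding transcript that splices from the exon before to the exon after (principal isoform first, then the longest coding sequence). Exons were named by most exclusion reads (8), most exclusion reads without inclusion (6), most inclusion reads (8), largest and smallest differences called (6 each, where as many genes existed), most exclusion reads in each list (3), and 3 on each side of the limit, with 1 exon per gene; 1 exon so chosen is left out. KIFC1, DIABLO, ELK3, the second SLC29A1 exon, the CD44 exons beyond the first, SGCE, HSD17B4 and HNRNPC were added after their values were seen. Frame placement and intervals were tested on simulated data. Python 3.11.15, pandas 2.3.3, numpy 2.4.6, scipy 1.17.1 and matplotlib 3.10.9 were used. Splice-site and repeat scores, for which a genome sequence is needed, were not analysed here.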

Additional observations from a re-analysis of the deposited data

How the results depend on the processing

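Members and shares were recomputed with other read minimums, level limits, measures of inclusion and choices of event, and with exons in exactly 1 gene; 3 alternatives were chosen after seeing the data (the event chosen before the level limit, 1 exon per set of overlapping exons, 1 exon per skipping junction). The number of members ranged from 3179 to 4921 except with at least 50 exclusion reads, which left 2354 because fewer exons pass. The shares with a length divisible by 3, coding, annotated, and breaking the frame stayed within the 95% interval of their values under every alternative run. The median upstream intron moved to 1708 nt with at least 50 exclusion reads and 1727 nt with 1 exon per skipping junction. Without dividing inclusion reads by 2, the median read-based level was 0.0373. The numbers of exons higher and lower in LM2 were 18 and 11 at a difference of at least 0.02, 3 and 0 at 0.1, and 28 and 48 by read intervals; Bayes factor minimums of 5 and 20 gave 11 and 7, and 9 and 5. At 1 exon per set of overlapping exons 4 were lower. No paired analysis was possible because the deposited tables hold 1 set of values per line and carry no replicate numbers; for the same reason no replicate could be left out. Splice-site scores and pyrimidine content were not run, for want of a genome sequence. With a median of 3 inclusion reads per line, depth limits most single members.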

Other observations

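Some members carried sequence that recurs in many other genes, an analysis added after the exon sequences were seen. Runs of 16 bases were taken as shared where at least 100 of 54305 genes without an exon in the 5084 held them in an annotated transcript. Of 3688 members with a sequence, 842 (22.8%) held such a run, against 97 of 1097 (8.84%) of the other exons, with no test of the difference. Within exons coding in a protein-coding transcript the shares were 19.5% of 968 members and 4.65% of 559 others. The run in most of the searched genes (2114) and the run in most members (129, in 112 genes), both of a kind that Alu repeats carry, are printed as they stand in the transcripts.
Run in most searched genes: taatcccagcactttg
Run in most members: ctcctgcctcagcctc
The first was in 40 members and its reverse complement in 73. Of the members with a shared run 689 were placed in a frame, and 441 (64.0%) of them held an in-frame stop, against 65.9% of all placed members. Named exons with a shared run include those of RPS18, PPIA, TKT, COPB2, SRPK1, COX4I1 and NDUFS4 and the short SRSF3 exon.

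Members were spread over many genes: 1602 genes had 1, 551 had 2 and 60 had 5 or more. SGCE, which encodes epsilon-sarcoglycan, had the most, 14 exons of 32 to 256 nt over 5 skipping junctions. Counted once per set of overlapping exons, the 14 came to 8. They had 0 to 4 inclusion reads each in LM2 and 0 to 7 in parental cells, and 9 of the 14 broke the frame. HSD17B4, an enzyme of peroxisomal fatty acid oxidation, had 9 that did not overlap, all breaking the frame, with 0 to 12 and 0 to 15 inclusion reads. HNRNPC had 6, and its 163-nt exon, in the 5′ untranslated region, had 190 and 324 inclusion reads beside 237 and 249 exclusion reads in LM2 and parental cells.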
